A study of Mus musculus with 15 samples.

Results

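Hox genes encode homeodomain transcription factors that record position along the body axis, and the report covers all 39 of them in mouse. Members were chosen by symbol alone, as every gene named Hoxa, Hoxb, Hoxc or Hoxd followed by a number, which took 39 of the 55487 genes in the deposited table. They lie in 4 clusters, with 11 HoxA genes on chromosome 6, 10 HoxB genes on chromosome 11, 9 HoxC genes on chromosome 15 and 9 HoxD genes on chromosome 2. PolyA RNA was sequenced from female C57BL6/CAST hybrid TTF cells (TTF commonly stands for tail-tip fibroblast). The 3 wild-type libraries (genotype S7WT_TTF, called WT 1, 2 and 3) carry no SIRT7 change in the labels, and the 3 knockout libraries (genotype SIRT7-KO, called KO 2, 9 and 22) are labelled as lacking the sirtuin SIRT7, a nuclear deacylase. All 6 share the hybrid background, so that reads over strain differences could be split between genome 1 and genome 2. The labels give neither which strain is genome 1, nor how the knockout allele was made, nor whether libraries came from separate animals. P-values therefore measure only the spread between these libraries, and genotype cannot be told apart from any other difference between the wild-type and knockout cells. The labels list 9 further libraries, which were not analysed here.

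Within a cluster, Hox genes are numbered by paralog group, and genes of the same number in different clusters descend from a common ancestor. Low-numbered genes are used toward the head and high-numbered genes toward the tail, and the order of the genes along the chromosome follows the order of their use along the body. Adult fibroblasts keep much of this pattern in culture, so that their Hox profile is known to reflect the body site they came from, with paralog groups 9 to 13 marking the trunk end, tail, distal limb and genital region. Polycomb complexes hold unused Hox genes silent and trithorax complexes keep used ones active.

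Depth was close to equal, at 61065582 to 61506413 counts per library, and Hox genes took 0.0497% to 0.0585% of them. Values by library are given in the order WT 1, 2, 3, then KO 2, 9, 22. Sirt7 itself had 833, 1107 and 598 wild-type counts against 512, 694 and 787 in knockout. The groups overlapped, and the log2 fold change of knockout over wild type was -0.31 (SE 0.27, edgeR adjusted p = 0.515), so the gene count did not separate the groups. Among its transcripts, Sirt7-201, singled out for its values, had 53, 58 and 159 estimated counts in wild type and 2, 0 and 0 in knockout, which goes with the labels, whereas Sirt7-204 and Sirt7-209 were higher in every knockout library than in wild type. Spread was larger in knockout, with a biological coefficient of variation of 0.378 against 0.135 in wild type. Whether the libraries of both groups are replicates of the same kind is not known. The 10 fibroblast markers summed to 15800 to 16000 CPM (counts scaled to a total of 1000000) in wild type and 26000 to 34600 in knockout, a sum made up mostly of the collagens, Fn1 and Vim. Other fibroblast markers were lower in some knockout libraries, with Thy1 at 12 counts in KO 9 against 6058 to 6170 in wild type, Dcn at 1010 in KO 9 against 7224 to 8070, and Pdgfra at 578 and 698 in KO 2 and 9 against 4189 to 4670. Lum was low throughout, at 17 to 371 counts. Summed CPM stayed between 4.03 and 5.81 for 8 keratinocyte markers, between 0.752 and 5.56 for 6 endothelial markers and between 2.83 and 6.30 for 7 leukocyte markers. Of the markers, Cdh5, Cldn5, Adgre1, Cd3e, Tyrobp, Myod1, Myog, Myh3 and Pax7 were at 0 in all 6 libraries. Other members had counts, with Krt10 at 231 to 335, Tek at 36 to 339, Cd68 at 161 to 376 and Des at 48 to 81. Krt10, Tek and Cd68 carried most of the keratinocyte, endothelial and leukocyte sums. Muscle markers summed to 18.1 to 21.7 CPM in wild type and 49.3 to 112 in knockout, nearly all of it Acta1, chondrocyte markers to 3.93 to 10.5 over the 6 libraries, and glial and melanocyte markers to 15.8 to 17.5 against 7.89 to 12.3. The part of these differences in the Hox values was not tested.

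Promoter sequence is shown for 3 pairs of paralogs, in each of which the HoxA member was transcribed and the HoxD member was at or near 0 counts. Hoxa9 and Hoxa11 were the genes called in the allelic comparison given further on, and Hoxa13 and the HoxD paralogs were added after their values were seen. Each run holds the 250 bases before the RefSeq start on GRCm38.p6, read 5′ to 3′ in the direction of the gene. Capitals mark matches, on either strand, to the Pbx-Hox motif TGATNNAT, the Meis motif TGACAG and the TATA box TATAAA, each of which may overlap another. Hoxa9 lies at chr6:52227371-52227620 (minus strand), Hoxd9 at chr2:74697513-74697762 (plus), Hoxa11 at chr6:52245811-52246060 (minus), Hoxd11 at chr2:74682073-74682322 (plus), Hoxa13 at chr6:52260881-52261130 (minus) and Hoxd13 at chr2:74667975-74668224 (plus).
Hoxa9: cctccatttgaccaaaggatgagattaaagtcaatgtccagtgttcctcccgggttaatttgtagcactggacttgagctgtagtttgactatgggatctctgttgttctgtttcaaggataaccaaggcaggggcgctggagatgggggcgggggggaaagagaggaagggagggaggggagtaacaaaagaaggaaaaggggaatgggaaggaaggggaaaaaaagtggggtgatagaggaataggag
Hoxd9: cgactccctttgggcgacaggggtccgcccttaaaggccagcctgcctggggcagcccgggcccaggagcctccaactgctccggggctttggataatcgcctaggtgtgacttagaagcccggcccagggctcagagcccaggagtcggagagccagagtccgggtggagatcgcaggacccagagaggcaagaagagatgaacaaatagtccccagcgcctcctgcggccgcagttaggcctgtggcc
Hoxa11: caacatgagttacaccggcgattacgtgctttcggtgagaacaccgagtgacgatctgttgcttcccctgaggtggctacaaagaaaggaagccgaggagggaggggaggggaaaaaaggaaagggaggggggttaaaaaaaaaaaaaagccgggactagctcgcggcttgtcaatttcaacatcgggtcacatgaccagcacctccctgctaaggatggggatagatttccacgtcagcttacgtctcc
Hoxd11: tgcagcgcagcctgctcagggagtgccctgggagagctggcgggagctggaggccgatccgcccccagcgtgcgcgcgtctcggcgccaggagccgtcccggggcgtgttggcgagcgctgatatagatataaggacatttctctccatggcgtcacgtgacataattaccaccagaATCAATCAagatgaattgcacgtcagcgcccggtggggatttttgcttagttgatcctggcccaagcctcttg
Hoxa13: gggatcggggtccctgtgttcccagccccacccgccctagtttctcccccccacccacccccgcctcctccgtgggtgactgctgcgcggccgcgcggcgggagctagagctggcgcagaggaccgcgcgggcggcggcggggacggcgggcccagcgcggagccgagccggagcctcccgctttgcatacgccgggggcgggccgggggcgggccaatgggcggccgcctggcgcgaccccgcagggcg
Hoxd13: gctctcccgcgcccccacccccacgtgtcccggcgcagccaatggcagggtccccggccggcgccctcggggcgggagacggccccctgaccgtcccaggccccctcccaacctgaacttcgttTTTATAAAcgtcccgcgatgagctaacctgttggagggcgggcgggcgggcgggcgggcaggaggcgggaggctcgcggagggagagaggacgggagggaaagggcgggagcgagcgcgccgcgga

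In the runs shown, the HoxD member had more CG pairs than its HoxA paralog before groups 9 and 11 and fewer before group 13, but the direction for group 11 depends on which of the 2 RefSeq entries of Hoxd11 is read. CG pairs, the sites of DNA methylation in mammals, numbered 3 before Hoxa9 and 13 before Hoxd9, 13 before Hoxa11 and 20 before Hoxd11, and 35 before Hoxa13 and 31 before Hoxd13. The Hoxd11 entry that is not shown had 2 CG pairs and no match to the Pbx-Hox motif. The median over the RefSeq promoters of 250 bases was 6 CG pairs (32851 promoters), against 15.5 for the 10 HoxA entries and 12.5 for the 10 HoxD entries. The Pbx-Hox motif was found in 1 of the 6 runs shown, before Hoxd11, and in 7.68% of all promoters of this length. The TATA box letters were found before Hoxd13 only among the 6, in 2 overlapping matches, and in 12.4% of all promoters. The Meis motif was in none of the 6 and in 15.9% of all promoters. A match is a description of these letters and not a measured site. RefSeq entries were matched for 22 of the 39 Hox genes.

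Wild-type cells showed a posterior profile carried by the HoxC cluster. Levels were compared between genes as TPM, in which counts are divided by the merged exon length of the gene and scaled to a common total. Paralog groups 9 to 13 held 90.3% ± 0.351 (SD, n = 3) of all Hox TPM in wild type and 87.8% ± 3.08 in knockout. Groups 5 to 8 held 6.98% ± 0.309 and 8.46% ± 2.25, and groups 1 to 4 held 2.77% ± 0.613 and 3.73% ± 0.817. Summed over genes, HoxC reached 524 ± 5.27 TPM in wild type, HoxB 160 ± 1.34, HoxA 67.0 ± 1.12 and HoxD 0.0069 ± 0.012. Levels did not climb evenly along a cluster. In wild type they peaked at Hoxa10, Hoxb9 and Hoxc12 and were lower at the last gene, Hoxa13, Hoxb13 or Hoxc13, and HoxB dipped to 2.26 TPM at Hoxb8 between Hoxb7 and Hoxb9.

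**Figure D1:**
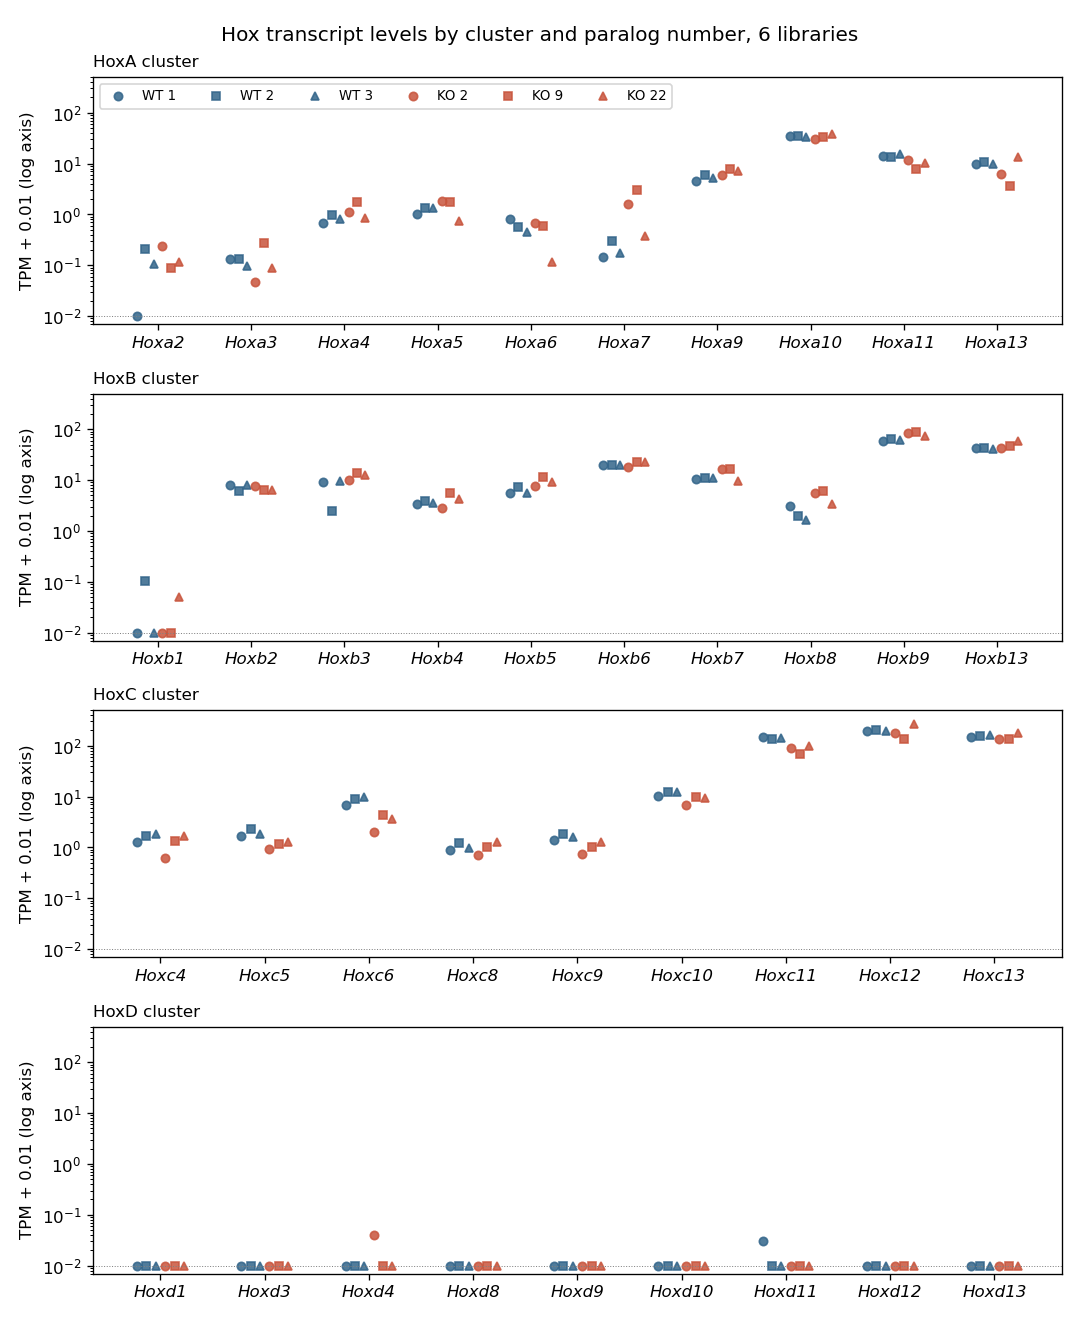
TPM plus 0.01 (log axis) of the Hox genes reported, in paralog order within each cluster, with 1 symbol per library (blue for WT 1, 2 and 3, red for KO 2, 9 and 22). Hoxc11, Hoxc12 and Hoxc13 are highest in wild type, at 143 to 201 TPM on average, and the HoxD genes lie at or near the dotted line that marks 0 TPM.

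Hoxc12 was the highest Hox gene in wild type at 201 ± 3.76 TPM, and no wild-type library of it overlapped the next gene. Hoxc13 followed at 154 ± 6.73 and Hoxc11 at 143 ± 6.40 TPM, and these neighbours overlapped between libraries. Hoxb9 (61.4 ± 2.14), Hoxb13 (42.0 ± 0.704), Hoxa10 (34.3 ± 0.661), Hoxb6 (19.9 ± 0.307) and Hoxa11 (14.3 ± 0.863 TPM) came next, each apart from its neighbours in every wild-type library. This order rests on the length used, since with the length of the longest transcript Hoxa10 (34.6 TPM) ranked above Hoxb13 (33.3 TPM). Hoxc10, Hoxb7 and Hoxa13 overlapped in the chain between 9.78 and 12.3 TPM, and Hoxc6, Hoxb2, Hoxb3, Hoxb5 and Hoxa9 formed a second such chain between 2.41 and 9.69 TPM. By merged exon length, ranks 1 to 7 of mean TPM were held by the same genes in knockout, in the same order.

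Comparison of knockout with wild type asked whether loss of SIRT7 was accompanied by another Hox profile. Of 39 Hox genes, 27 passed the filter on low counts and 12 did not, among them all 9 HoxD genes, Hoxa2 and Hoxb1. Hoxc11 fell, and it was the only Hox gene to pass (edgeR quasi-likelihood test, adjusted p under 0.05 over all 16678 genes tested). Across all genes 6.73% were called, 3.54% higher and 3.19% lower in knockout. For none of the 27 was a rise called, whereas at an unadjusted p under 0.05 there were 5 Hox genes higher and 6 lower. DESeq2 called 3 higher and 3 lower, beside 14.8% of all genes. The 11 genes at an unadjusted p under 0.05 were 40.7% of the 27, against 26.3% of all genes. The groups did not overlap for 10 Hox genes, 4 higher and 6 lower, beside 35.9% of all genes (15.7% higher and 20.2% lower). The median log2 fold change of the 27 was -0.08, beside 0.02 over all genes. In bulk RNA, fewer cells that use a gene and less RNA per cell cannot be told apart.

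**Figure D2:**
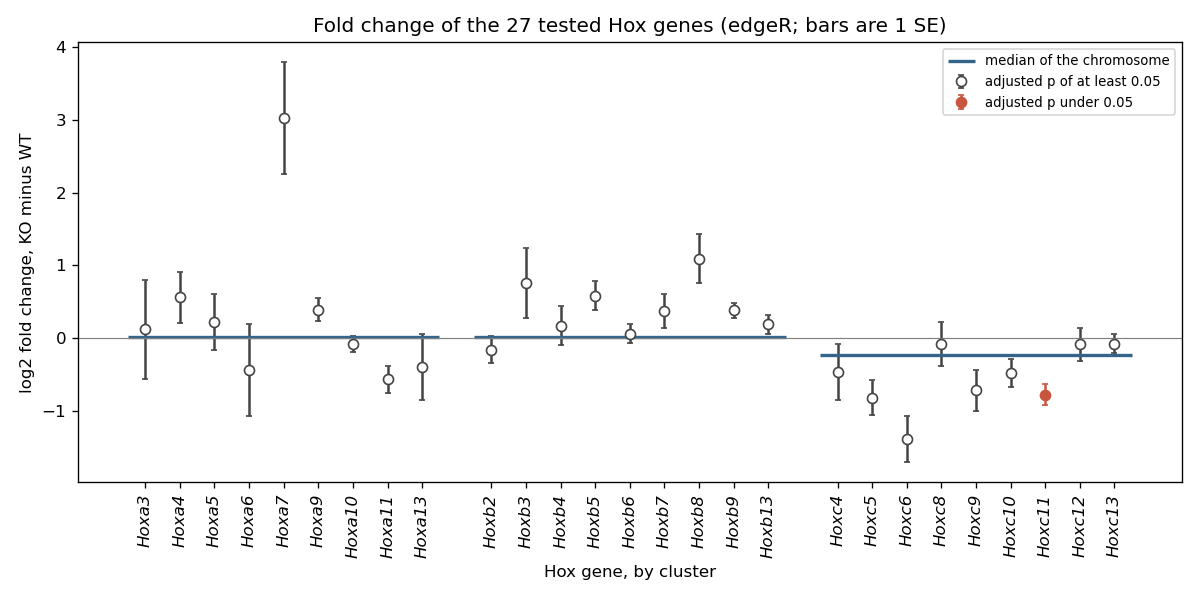
Log2 fold change (knockout minus wild type) of the 27 tested Hox genes by cluster, with bars of 1 SE. The blue line is the median of the other tested genes on the same chromosome, at 0.01 for HoxA and HoxB and -0.23 for HoxC. Hoxc11 (filled) is the only gene with an adjusted p under 0.05, and all 9 HoxC genes lie below 0.

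The HoxC cluster (chr15:102921103-103036852) had a negative log2 fold change for each of its 9 genes, with a median of -0.48. Hoxc11, a group 11 gene with roles in hindlimb and caudal patterning, had 6943, 6420 and 6523 counts in wild type and 4074, 3050 and 4198 in knockout. Every knockout library lay below every wild-type library. It fell from 108 ± 4.91 to 61.6 ± 10.5 CPM (n = 3 each), a log2 fold change of -0.78 (SE 0.14, edgeR adjusted p = 0.0329). Without any 1 of the wild-type libraries the adjusted p was 0.140 to 0.161, and with the chromosome medians taken out the log2 fold change was -0.54 (edgeR adjusted p = 0.0915).

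Hoxc6, which marks the thoracic region, had 373, 498 and 537 counts in wild type and 106, 228 and 189 in knockout. The groups were apart, and the log2 fold change of -1.39 (SE 0.32, edgeR adjusted p = 0.0526) was the most negative of the tested Hox genes but missed the threshold. limma-voom gave it an adjusted p of 0.0444 and DESeq2 0.000393. Hoxc10, a hindlimb and lumbar gene, had 455, 542 and 535 counts against 288, 401 and 384, again with no overlap between groups (-0.48, SE 0.19, edgeR adjusted p = 0.168).

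Hoxc12 had 4694, 4872 and 4706 counts in wild type and 4030, 3102 and 5909 in knockout, so that KO 22 lay above and KO 2 and 9 below all wild-type libraries (-0.09, SE 0.23). Hoxc13, which is needed for hair and nail formation, had 8285, 8867 and 9060 against 7462, 7305 and 9371, with the same split (-0.08, SE 0.13). The edgeR adjusted p-values of the pair were 0.843 and 0.728. The high-numbered end of HoxC was therefore uneven, with Hoxc11 lower in each knockout library and Hoxc12 and Hoxc13 lower in KO 2 and 9 only. Of the 4 remaining genes, Hoxc5 (117, 163 and 130 counts against 63, 78 and 85) and Hoxc9 (78, 102 and 88 counts against 39, 54 and 65) also had no overlap between groups, and Hoxc4 and Hoxc8 did overlap. Their edgeR adjusted p-values ran from 0.0892 for Hoxc5 to 0.897 for Hoxc8. Hoxc5 and Hoxc9 are named because of these values. Annotated exons of Hoxc5 cover 8.70% of Hoxc10 exon bases on the same strand, so counts of the pair are uncertain there.

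Lower values were not limited to Hox genes on this chromosome. Of the other tested genes on chromosome 15, 473 of 677 had a negative log2 fold change, with a median of -0.23. Within 1 Mb of the HoxC cluster, 27 of 31 tested protein-coding genes were negative, with a median of -0.33. Of the 31, 6 fell (edgeR), beside 84 of the 677 on the chromosome and 3.19% of all genes. Igfbp6, which encodes an IGF-binding protein, fell by 2.37 on the log2 scale (edgeR adjusted p = 0.00976), and the separase gene Espl1 fell by 0.68 (adjusted p = 0.0179). In the fit with chromosome medians taken out, Hoxc8, Hoxc12 and Hoxc13 had positive log2 fold changes of 0.16, 0.14 and 0.15.

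**Figure D3:**
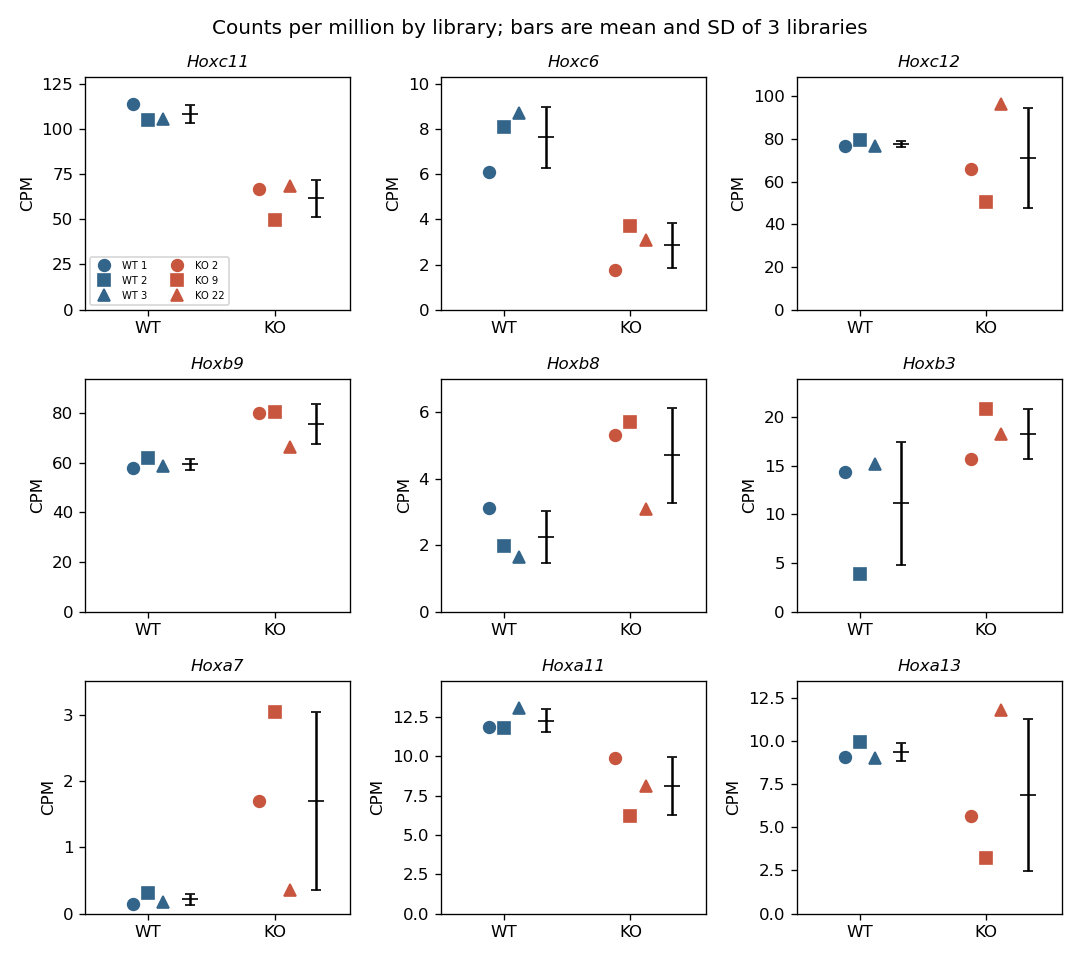
CPM (linear axis from 0) of 9 Hox genes by library, with mean and SD of 3 libraries beside each group. Hoxc11 and Hoxc6 lie apart in wild type and knockout, Hoxc12 and Hoxa13 have KO 22 above wild type with KO 2 and 9 below it, and Hoxb3 has WT 2 far below WT 1 and 3.

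The HoxB cluster (chr11:96194316-96368256) had a positive log2 fold change for 8 of its 9 tested genes, with a median of 0.37 beside 0.01 for its chromosome and 0.05 for the 32 tested flanking genes. None of the 9 passed in edgeR, and DESeq2 called Hoxb8 and Hoxb9 higher. Summed TPM of the cluster was 161, 159 and 161 in wild type and 196, 218 and 200 in knockout. All knockout sums lay above all wild-type sums.

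Hoxb9, a group 9 gene of the thoracic and more caudal trunk, had the largest difference in TPM of the cluster, 61.4 ± 2.14 in wild type and 82.2 ± 7.52 in knockout. It had 3522, 3787 and 3600 counts in wild type and 4894, 4947 and 4045 in knockout. The groups did not overlap, and the log2 fold change was 0.38 (SE 0.10, edgeR adjusted p = 0.0711; DESeq2 adjusted p = 0.0426). Hoxb13, the most caudal gene of the cluster and one known for its restriction to tail, hindgut and prostate, had 2158, 2138 and 2096 counts against 2120, 2282 and 2714. KO 2 lay within the wild-type range and KO 22 was highest (0.19, SE 0.13, edgeR adjusted p = 0.389).

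Hoxb5 had 358, 462 and 350 counts in wild type and 477, 693 and 542 in knockout, with no overlap (0.58, SE 0.20, edgeR adjusted p = 0.132). Hoxb6 had 881, 914 and 897 against 792, 986 and 964, and Hoxb7 had 366, 397 and 384 against 566, 565 and 321. For both, 1 knockout library lay below all wild-type libraries, KO 2 for Hoxb6 and KO 22 for Hoxb7. Hoxb8, singled out for its values, had 190, 121 and 100 counts against 324, 351 and 188, so that only KO 22 reached into the wild-type range (1.09, SE 0.34, edgeR adjusted p = 0.106).

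Among the genes of the head end, Hoxb2, a hindbrain gene in the embryo, had 639, 495 and 657 counts in wild type and 604, 486 and 476 in knockout (-0.16, SE 0.18, edgeR adjusted p = 0.611). Hoxb3 had 881, 236 and 932 against 959, 1287 and 1121. WT 2 stood far below WT 1 and 3, and without it the log2 fold change fell from 0.75 to 0.33. The transcript Hoxb3-202 carried 94.3% of wild-type and 91.1% of knockout Hoxb3 counts, and it was the one that was low in WT 2, at 224 counts. Annotated exons of the antisense gene Hoxb3os overlap 52.9% of Hoxb3 and 27.3% of Hoxb2 exon bases, and the sources used here do not say whether the counting used strand, so reads of these pairs cannot be told apart. Hoxb4 had between 162 and 316 counts in the 6 libraries, and Hoxb1 between 0 and 5.

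The HoxA cluster (chr6:52155590-52260880) went in both directions, with 5 positive and 4 negative log2 fold changes and a median of 0.12. None of the 9 tested genes passed in edgeR, and DESeq2 called Hoxa7 higher. Hoxa10, the most abundant HoxA gene and one known for its part in lumbar and uterine patterning, had 2617, 2586 and 2529 counts in wild type and 2185, 2341 and 2617 in knockout (-0.08, SE 0.11, edgeR adjusted p = 0.694). Hoxa9, whose promoter is shown above, had 594, 763 and 661 against 746, 958 and 867. Its groups overlapped through WT 2 and KO 2 (0.39, SE 0.16, edgeR adjusted p = 0.184).

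Hoxa11, a gene of the limb and female reproductive tract, had 727, 724 and 805 counts in wild type and 606, 383 and 496 in knockout. All knockout libraries were lower, and the log2 fold change was -0.57 (SE 0.19, edgeR adjusted p = 0.123). Its antisense RNA Hoxa11os had 710, 723 and 738 counts against 541, 419 and 634 (-0.41, SE 0.18), and its exons overlap 35.0% of Hoxa11 exon bases, so that the 2 are uncertain where they overlap. Hoxa13, the most caudal gene of the cluster and needed for digits and the genital tubercle, had 554, 612 and 557 against 345, 199 and 723. Its knockout libraries lay on both sides of wild type, KO 2 and 9 below and KO 22 above (-0.40, SE 0.45, edgeR adjusted p = 0.618). Without KO 22, the library above wild type, the log2 fold change of Hoxa13 was -1.06 (edgeR adjusted p = 0.0489). Of the 6 fits that each left out 1 library, only that one called Hoxa13, and it called 14.5% of all genes.

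Hoxa7 had the highest fold change of any tested Hox gene from a low level and is singled out for that reason. It had 9, 19 and 11 counts in wild type and 103, 187 and 22 in knockout, which is 0.212 ± 0.0859 against 1.70 ± 1.34 CPM. KO 22 lay just above wild type, and KO 2 and 9 far above it. The log2 fold change was 3.02 (SE 0.77, edgeR adjusted p = 0.0688, DESeq2 adjusted p = 0.000934). Without KO 22, the lowest knockout library, it was 3.49 (edgeR adjusted p = 0.0102), in a fit that called 14.5% of all genes. No other fit that left out 1 library called Hoxa7. Reads assigned to a genome were 0, 2 and 0 for genome 1 and 0, 2 and 0 for genome 2 in wild type, and 31, 42 and 8 against 0, 0 and 0 in knockout. The assigned Hoxa7 reads of knockout were thus all from genome 1. The antisense RNA Hoxaas3, whose exons overlap 20.4% of Hoxa7 exon bases, had 13, 11 and 25 counts in wild type and 23, 23 and 4 in knockout. Other HoxA genes were low, with counts from 0 to 34 for Hoxa2, Hoxa3 and Hoxa6 and from 25 to 78 for Hoxa4 and Hoxa5.

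HoxD (chr2:74668310-74765142) was almost without counts in wild type and knockout alike. Hoxd1, Hoxd3, Hoxd8, Hoxd9, Hoxd10, Hoxd12 and Hoxd13 had 0 counts in all 6 libraries. Hoxd11 had 2 counts in WT 1 and Hoxd4 had 2 in KO 2. A count of 0 over all 6 libraries allows a level of up to 0.00816 CPM (3 counts over the pooled total, counting error only). The paralogs of groups 9 to 13 in the other clusters had counts in every one of these libraries, ranging from 39 to 102 for Hoxc9, the lowest of them, up to 7305 to 9371 for Hoxc13. The cluster's noncoding RNAs Haglr and Hoxd3os1 and its end gene Evx2 were also at 0.

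Genes around HoxD were transcribed, and nearly all of their assigned reads came from genome 1. Within 1 Mb, Atp5g3 had 10325 to 14270 counts and Lnpk 722 to 900 counts across the 6 libraries. The genome 1 share of assigned reads within 1 Mb of HoxD was 99.94%, 99.88% and 99.62% in wild type and 99.53%, 99.52% and 99.89% in knockout. Within 5 Mb, 44 of 47 genes had a pooled share of at least 95%, and within 10 Mb it was 62 of 68 (91.2%). Beyond 10 Mb, 120 of 787 genes on chromosome 2 reached that share (15.2%), with a median of 60.1%, and over all autosomes 2.68% did. Wild type and knockout share this feature, and HoxD itself had no reads with which to measure it.

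**Figure D4:**
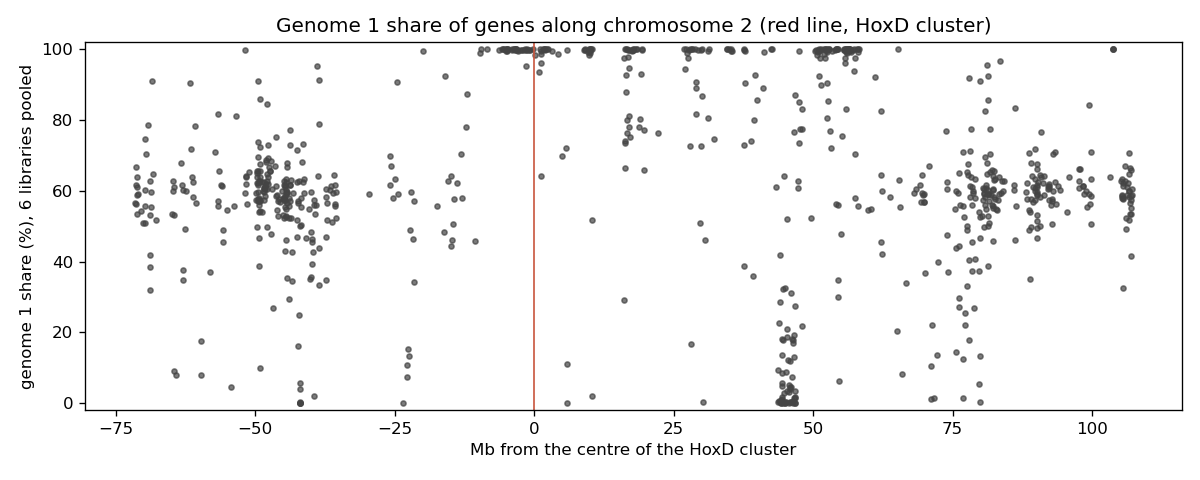
Genome 1 share (%, 6 libraries pooled) of genes along chromosome 2 against distance in Mb from the HoxD cluster (red line). All 37 genes from 10 Mb before the cluster up to it have a share of at least 95%, and other stretches of such genes, and one of low shares, follow on the other side.

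Allelic counts asked whether the balance of genome 1 and genome 2 in Hox genes differed with genotype. Of the Hox genes, 18 had a mean of at least 20 assigned counts per library and were tested, and 2 passed, Hoxa9 and Hoxa11, both with a higher genome 1 share in knockout (edgeR). Over all 12984 genes tested, 23.0% were called, 11.3% with a higher genome 1 share. None of the 18 was called with a lower share. At an unadjusted p under 0.05 (edgeR) there were 5 of the 18, 2 higher and 3 lower. The share of all genes at that threshold was not computed, and 23.0% were called even after adjustment, so this count is not read as a Hox trait. Hoxc11 was called lower by limma on the logit share, for which calls over all genes were not counted.

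The genome 1 share of Hoxa9 was 46.1%, 38.7% and 40.3% in wild type and 64.9%, 68.1% and 60.2% in knockout. The groups lay apart, and the log2 ratio of genome 1 to genome 2 rose by 1.34 (SE 0.24, edgeR adjusted p = 0.0101). For Hoxa11 the share was 14.1%, 16.1% and 13.5% in wild type and 34.0%, 22.3% and 32.2% in knockout. Its ratio rose by 1.29 (SE 0.30, edgeR adjusted p = 0.0283), with 50, 56 and 45 genome 1 counts beside 304, 291 and 288 of genome 2 in wild type.

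These shifts had the direction and about the size of those of the whole chromosome. The genome 1 share of chromosome 6 was 36.1%, 36.1% and 36.3% in wild type and 61.6%, 63.3% and 61.4% in knockout, and 392 of its 614 tested genes (63.8%) had a called rise. The median change in log2 ratio over its other tested genes was 1.62. Of the 6 tested genes flanking HoxA, 5 were called, with a median change of 1.77. With the median of each chromosome taken out of each library, the changes of Hoxa9 and Hoxa11 were -0.31 and -0.36 (edgeR adjusted p = 0.610 and 0.699). Hoxa11 and Hoxa13, at the caudal end of the cluster, had a lower genome 1 share than chromosome 6 in each library. Hoxa13 stood at 10.8%, 8.42% and 8.33% in wild type and 9.43%, 7.41% and 33.6% in knockout. KO 22, the library with the most Hoxa13 counts, was the one with the higher Hoxa13 share. Hoxa11os had a genome 1 share of 2.77% to 9.06% in all 6 libraries.

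Hoxa10 differed among the wild-type libraries themselves, at 67.5% in WT 1 and 31.3% and 31.6% in WT 2 and 3. WT 1 had 114 genome 1 and 55 genome 2 counts, where WT 2 had 114 and 250. The transcript Hoxa10-203 had 37 counts in WT 1 against 799 and 848 in WT 2 and 3. Knockout shares of Hoxa10 were 66.7%, 92.9% and 63.1%, near or above WT 1, whereas Hoxa10-203 had 692, 760 and 859 counts in knockout, near WT 2 and 3. Chromosome 6 as a whole stood at 36.1%, 36.1% and 36.3% in wild type and 61.6%, 63.3% and 61.4% in knockout. Hoxa10 was thus near its chromosome in WT 2 and 3 and in KO 2 and 22. It was above its chromosome in WT 1 and KO 9, and of these only WT 1 was low in Hoxa10-203. Whether share and transcript go together was not tested. The allelic test did not call the difference in share (2.13, SE 1.0, edgeR adjusted p = 0.192).

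**Figure D5:**
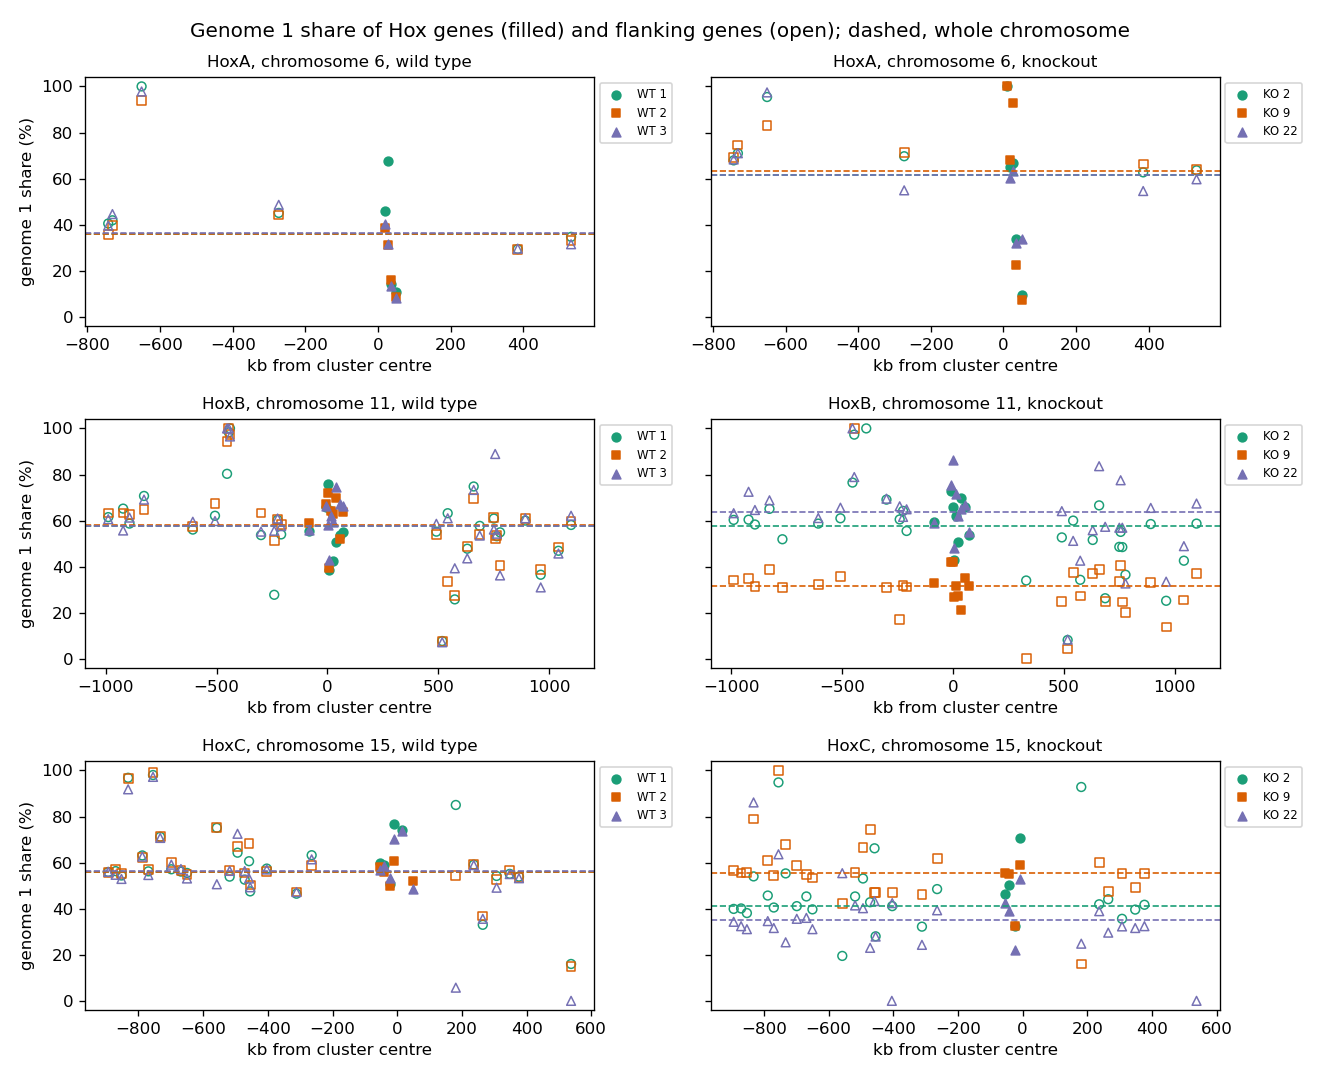
Genome 1 share (%) of Hox genes (filled) and flanking protein-coding genes (open) with at least 20 assigned counts in a library, against distance in kb from the cluster centre, by library (color and symbol). Dashed lines are the whole chromosome: 36.1% to 36.3% in wild type and 61.4% to 63.3% in knockout for chromosome 6, and 31.6% in KO 9 for chromosome 11, where the filled squares of HoxB also lie low.

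HoxB shares followed the library. Over the cluster, genome 1 made up 58.9%, 61.7% and 62.4% in wild type and 64.3%, 36.6% and 67.6% in knockout. Chromosome 11 had 57.5%, 58.0% and 57.8% and then 57.8%, 31.6% and 63.6%. KO 9 stood apart from the other libraries in both. Hoxb9 had 65.8%, 67.0% and 66.2% in wild type and 72.7%, 42.2% and 75.6% in knockout, and no HoxB gene was called (edgeR adjusted p from 0.228 for Hoxb2 to 0.955 for Hoxb3). Without KO 9, the library that stood apart, the change for Hoxb9 was 0.54 in favor of genome 1 (edgeR adjusted p = 0.0352). No other fit that left out 1 library called Hoxb9.

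HoxC shares were lower in knockout, as were those of chromosome 15. The cluster had 60.1%, 57.7% and 57.7% in wild type and 47.5%, 54.7% and 41.1% in knockout, and the chromosome had 56.1%, 55.9% and 56.4% and then 41.2%, 55.5% and 34.9%. The order KO 9, KO 2, KO 22 was the same for the cluster and the chromosome. Hoxc11, the gene that fell in all reads, had few assigned counts, 35, 28 and 43 for genome 1 in wild type and 15, 15 and 8 in knockout, beside 34, 28 and 38 and then 31, 31 and 28 for genome 2. Its genome 1 counts were lower in every knockout library, while genome 2 counts overlapped between groups. The share went from 51.3% ± 1.61 to 29.1% ± 6.0, a change in log2 ratio of -1.35 (SE 0.39, edgeR adjusted p = 0.0558). With at least 50 assigned counts required, which tests fewer genes, its edgeR adjusted p was 0.0442. The same gene in limma on the logit share had an adjusted p of 0.0193, and with chromosome medians taken out the change was -0.63 (edgeR adjusted p = 0.594).

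Hox proteins bind DNA together with TALE homeodomain cofactors of the Pbx, Meis and Pknox families, and their genes were transcribed in every library. All 9 were tested and none passed in edgeR, DESeq2 or limma-voom, beside 6.73% of all genes called in edgeR and 14.8% in DESeq2. At an unadjusted p under 0.05 in edgeR there was 1, beside 26.3% of all genes. The median log2 fold change of the 9 was -0.26. Meis1 had 1008, 956 and 982 counts in wild type and 671, 928 and 788 in knockout, all of the latter below wild type (-0.27, SE 0.15, edgeR adjusted p = 0.317).

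Of 12 noncoding RNAs of the Hox clusters in the table, 6 were tested and none passed in edgeR, DESeq2 or limma-voom. Of all genes, 6.73% were called in edgeR and 14.8% in DESeq2. At an unadjusted p under 0.05 in edgeR there were 0 of the 6, beside 26.3% of all genes. Hotair, transcribed from HoxC between Hoxc11 and Hoxc12 and known as a partner of Polycomb, had 636, 735 and 721 counts in wild type and 528, 474 and 599 in knockout. All its knockout libraries were lower (-0.35, SE 0.15, edgeR adjusted p = 0.206). Hottip, from the HoxA end, had at most 15 counts, and Hotairm1 had 25 to 134.

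Of 30 chromatin regulators of Hox clusters, 2 fell and none rose (edgeR), beside 6.73% of all genes called, with a median log2 fold change of -0.01. At an unadjusted p under 0.05 there were 7, beside 26.3% of all genes, so neither count stands above the background. Men1 encodes menin, a subunit of MLL complexes that keep Hox genes active, and had 3540, 3443 and 3209 counts in wild type and 2369, 2293 and 2351 in knockout. The log2 fold change of Men1 was -0.51 (SE 0.09, edgeR adjusted p = 0.0307). Ring1, a ubiquitin ligase of Polycomb complex PRC1, had 2000, 1979 and 1914 counts against 1374, 1107 and 1387 (-0.57, SE 0.13, edgeR adjusted p = 0.0493). Both lost the call when chromosome medians were taken out, at -0.29 each (edgeR adjusted p = 0.123 for Men1 and 0.244 for Ring1).

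Among axial and retinoid regulators, which set Hox expression in the embryo, 10 of 19 were tested and none passed in edgeR or limma-voom. DESeq2 called Crabp2, Gdf11 and Rarg, beside 14.8% of all genes. In edgeR 5 were at an unadjusted p under 0.05, beside 26.3% of all genes. Of 47 other transcription factors of position, 27 were tested, 1 rose and 4 fell (edgeR), with a median log2 fold change of -0.24. Over all genes, 3.54% rose and 3.19% fell. Nkx3-2, a gene of the axial skeleton, fell from 165, 161 and 170 counts to 10, 20 and 35 (-2.88, SE 0.45, edgeR adjusted p = 0.0226). Emx2 (-0.63), Foxf1 (-2.98) and Dlx3 (-1.92) fell too, with edgeR adjusted p-values of 0.0448, 0.0476 and 0.0470. The hindlimb selectors Pitx1 and Tbx4 and the forelimb selector Tbx5 had between 0 and 3 counts in all 6 libraries.

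Hox genes had a larger median spread between libraries than all tested genes, in wild type and in knockout. The median SD of log2 CPM was 0.178 for the 27 tested Hox genes and 0.101 for all tested genes in wild type, and 0.332 and 0.275 in knockout. For 23 of the 27 the SD was larger in knockout. The share of all tested genes with a larger SD in knockout was not computed. Their median was larger in knockout too, so this count is not read as a Hox trait. The part of low counts in this spread was not tested. Hoxa13, Hoxc12 and Hoxc13 had KO 22 above and KO 2 and 9 below the wild-type libraries. Hoxb7 had the opposite split, with KO 22 below and KO 2 and 9 above them. These genes were singled out for their values.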

How the data were processed

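The deposited tables hold estimated counts by gene and by transcript for all reads, and gene counts split into genome 1 and genome 2. Per the submitters' processing notes, the tools included StringTie 1.3.3, which derives counts from coverage, and the aligner HISAT2 2.1.0, on mm10 (GRCm38), with settings, strand and annotation not given in the sources. Knockout columns fit either of 2 sets of SIRT7-KO libraries in the labels, so only their group is known. The labels of 1 set are c2, c9 and c22, the same numbers as the knockout columns. The other set and the wild-type libraries are numbered as replicates instead. Wild-type and knockout libraries may therefore not be replicates of the same kind. Whether knockout libraries were sequenced together with wild type is not stated.

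Coordinates and exon lengths came from GENCODE M21 on GRCm38, which matched 55227 genes. The other 260 held 0.0319% of counts. Groups were compared in edgeR 4.0.16 (R 4.3.3) by the quasi-likelihood test with TMM scaling, filterByExpr and Benjamini-Hochberg adjustment over all genes tested, with adjusted p under 0.05 called. Allelic ratios were tested likewise on genes averaging 20 or more assigned counts, with terms for library, allele and the interaction of allele and group. DESeq2 1.42.0 and limma 3.58.1 were alternatives. Scripts were tested on simulated data.

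Members and lists were chosen with earlier results of these data known. Values by library are given for Hox genes called in either test or with a mean of at least 5 CPM in either group, and for called members of other lists, at most 4 by p. Other genes are named as checks or for their values. Some genes that the rule or the lists take are not reported here.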

Additional observations from a re-analysis of the deposited data

How the results depend on the processing

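Against 1 Hox gene called in all reads, DESeq2 called 6 (Hoxa7, Hoxb8, Hoxb9, Hoxc5, Hoxc6 and Hoxc11, beside 14.8% of all genes), limma-voom 2, no filter on low counts 0 and chromosome medians taken out 0. Leaving out 1 library gave 0 to 7, with 0 without any 1 wild-type library and 7 without KO 22 (beside 14.5% of all genes). For all genes, 1123 calls became 2581 with DESeq2, 396 with no filter and 664 with chromosome medians taken out, and 45 to 2482 without 1 library. For the other lists, 7 calls became 13, 2 and 2 under these alternatives and 0 to 13 without 1 library. RLE scaling and group weights stayed within 1.5 times of each count. The 2 allelic calls became 0 with chromosome medians taken out and 0 to 4 without 1 library. Groups 9 to 13 held 89.2% of wild-type Hox TPM with the longest transcript as length.

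Log2 fold changes turned sign for Hoxa3 (-0.28 in limma-voom with and without group weights), and, with chromosome medians taken out, for Hoxc8 (0.16), Hoxc12 (0.14) and Hoxc13 (0.15). Without 1 library they ran from -0.98 to 0.55 for Hoxa3, -0.01 to 0.53 for Hoxa5, -0.84 to 0.01 for Hoxa6, -0.10 to 0.38 for Hoxb4, -0.30 to 0.12 for Hoxc8 and -0.40 to 0.10 for Hoxc12. Allelic changes turned sign with chromosome medians taken out for Hoxa9 (-0.31), Hoxa11 (-0.36), Hoxa13 (-0.60), Hoxb3 (0.31), Hoxb7 (0.34), Hoxb8 (0.29), Hoxb9 (0.30), Hoxb13 (0.04), Hoxc10 (0.20), Hoxc12 (0.17) and Hoxc13 (0.14). Without 1 library they ran from -0.07 to 1.45 for Hoxa13, -0.44 to 0.51 for Hoxb3, -1.44 to 0.09 for Hoxb4, -0.97 to 0.06 for Hoxb5, -1.01 to 0.22 for Hoxb6, -0.35 to 0.32 for Hoxb7, -0.92 to 0.62 for Hoxb8, -0.50 to 0.54 for Hoxb9 and -0.63 to 0.14 for Hoxb13. The cause was not tested. No paired analysis was possible because the columns of the groups share only 1 number. Few Hoxc11 counts could be assigned to a genome, 36 to 81 per library beside 3050 to 6943 counts in all reads, which limits its allelic result. HoxD genes had too few counts to be compared.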

Other observations

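Of 8 tested genes within 1 Mb of HoxA, 2 rose in knockout (beside 3.54% of all genes), both on the same side of the cluster. Skap2, an adaptor of Src-family kinases, had 541, 565 and 541 counts in wild type and 1379, 2240 and 1166 in knockout (1.57, SE 0.25, edgeR adjusted p = 0.0227). Snx10, a sorting nexin of endosomes, had 162, 170 and 158 against 534, 779 and 467 (1.89, SE 0.23, edgeR adjusted p = 0.0115). Of 32 tested genes within 1 Mb of HoxB, 1 rose and 1 fell (edgeR), beside 3.54% and 3.19% of all genes. Gngt2, a G-protein gamma subunit, fell from 318, 295 and 279 counts to 15, 18 and 26 (-3.87, SE 0.28, edgeR adjusted p = 0.00258). Copz2 rose from 1233, 1385 and 1375 counts to 2137, 1824 and 2709 (0.78, SE 0.17, edgeR adjusted p = 0.0475). These were chosen after their values were seen.

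Crabp1, a retinoic acid binding protein, had 5549, 5437 and 5413 counts in wild type and 4905, 3 and 7 in knockout. KO 2 was near wild type and KO 9 and 22 were almost without counts, and the edgeR adjusted p was 0.611. Fibroblast markers differed among the knockout libraries as well, with 1319, 12 and 4375 counts of Thy1 and 578, 698 and 4975 of Pdgfra in KO 2, 9 and 22.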
